A study of Mus musculus with 2 samples.

Results

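Transcripts of 10 genes for glycolytic enzymes were followed in single cells of B16F10 and B16F0, 2 mouse melanoma lines. The genes were chosen by name, with earlier results of these data known, and all 10 were present among the 14959 genes of the count table. They are Pfkl and Pfkp (the liver-type and platelet-type phosphofructokinases), Aldoa (aldolase A), Tpi1 (triosephosphate isomerase), Gapdh (glyceraldehyde-3-phosphate dehydrogenase), Pgk1 (phosphoglycerate kinase), Pgam1 (phosphoglycerate mutase), Eno1 (alpha-enolase), Pkm (the muscle pyruvate kinase) and Ldha (lactate dehydrogenase A).

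B16F10 is labelled a subclone of high metastatic capacity, and B16F0 the parental line of the B16 melanoma. Both were untreated as far as the labels say, and each was 1 library of 3'-end transcripts counted by unique molecular identifiers (UMIs). With 1 library per line, no difference below has a replicate check, no test was made, and the intervals reflect counting error alone. The B16F10 library held 1574 cells and 56748682 UMIs, and the B16F0 library held 2582 cells and 94268486 UMIs. Median depth was 34950.5 UMIs per B16F10 cell and 35503.5 UMIs per B16F0 cell, mitochondrially encoded transcripts took 6.78% and 5.41% of UMIs in B16F10 and B16F0, and 6 barcode sequences occurred in both libraries. All 8 melanocyte or melanoma markers checked were detected, with a summed level of 7822 CPM (UMI counts scaled to a total of 1000000) in B16F10 and 7906 CPM in B16F0. Single markers went both ways. Mitf had 164 CPM in B16F10 and 90.5 CPM in B16F0, and Tyr had 19.2 CPM in B16F10 and 64.3 CPM in B16F0. The 3 fibroblast markers in the table summed to 3.82 CPM in B16F10 and 3.99 CPM in B16F0, and the 2 macrophage markers to 3.93 CPM in B16F10 and 6.26 CPM in B16F0.

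Glycolysis splits glucose into pyruvate in the cytosol and yields ATP and NADH. Phosphofructokinase catalyses its committed step, aldolase and triosephosphate isomerase form the triose phosphates, and the enzymes from Gapdh to Pkm make up the stage that returns ATP. Lactate dehydrogenase A reduces pyruvate to lactate and regenerates the NAD that Gapdh needs, and many tumours keep this route running in the presence of oxygen.

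On mouse assembly GRCm38, GENCODE release M21 places Ldha at chr7:46841475-46855627 on the plus strand, Pgk1 at chrX:106187100-106203699 on the plus strand and Pfkl at chr10:77986947-78010083 on the minus strand. Gapdh lies at chr6:125161715-125166467 and Tpi1 at chr6:124810586-124814296, both on the minus strand. Pkm lies at chr9:59656368-59679375, Eno1 at chr4:150236721-150248879 and Pgam1 at chr19:41911923-41918660, all on the plus strand. Pfkp lies at chr13:6579768-6648777 on the minus strand. The annotation gives the name Aldoa to a pair of adjoining minus-strand genes, at chr7:126795234-126800751 and chr7:126800790-126809108, and the count table has 1 row of that name. All are annotated as protein-coding, and each count is over the whole gene.

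The promoters of 5 of the genes are shown because these genes differ in how they stood between the lines: Ldha and Pfkl were higher in B16F10, Pgk1 was higher in 1 cluster, and Gapdh and Pkm were not higher. Each sequence is the 250 bases before an annotated start (RefSeq, GRCm38.p6), read 5′ to 3′ along the gene. Capitals mark ACGTG or GCGTG on either strand, the core letters of the element that hypoxia-inducible factors bind. The windows are chr7:46845554-46845803 (plus strand) for Ldha, chrX:106186850-106187099 (plus) for Pgk1, chr10:78009808-78010057 (minus) for Pfkl, chr6:125165774-125166023 (minus) for Gapdh and chr9:59656326-59656575 (plus) for Pkm. RefSeq starts need not match the GENCODE spans above. The windows of Ldha, Pfkl and Gapdh lie within those spans, the Pkm window overlaps its span, and the Pgk1 window ends just before its span.
Ldha: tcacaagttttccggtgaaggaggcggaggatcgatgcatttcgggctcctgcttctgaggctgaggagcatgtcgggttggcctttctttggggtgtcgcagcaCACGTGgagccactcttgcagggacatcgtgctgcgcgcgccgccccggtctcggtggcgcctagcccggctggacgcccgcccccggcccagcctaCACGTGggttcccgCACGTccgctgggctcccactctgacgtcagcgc
Pgk1: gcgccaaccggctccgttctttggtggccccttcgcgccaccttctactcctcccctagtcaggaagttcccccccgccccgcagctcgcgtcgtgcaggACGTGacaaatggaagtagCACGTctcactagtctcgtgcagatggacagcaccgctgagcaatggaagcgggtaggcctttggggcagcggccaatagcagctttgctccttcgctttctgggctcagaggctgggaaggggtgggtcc
Pfkl: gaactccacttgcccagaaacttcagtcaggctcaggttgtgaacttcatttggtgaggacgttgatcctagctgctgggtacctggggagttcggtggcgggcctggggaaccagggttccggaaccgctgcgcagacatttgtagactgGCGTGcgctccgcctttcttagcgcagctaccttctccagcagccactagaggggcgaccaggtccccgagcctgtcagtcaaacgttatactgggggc
Gapdh: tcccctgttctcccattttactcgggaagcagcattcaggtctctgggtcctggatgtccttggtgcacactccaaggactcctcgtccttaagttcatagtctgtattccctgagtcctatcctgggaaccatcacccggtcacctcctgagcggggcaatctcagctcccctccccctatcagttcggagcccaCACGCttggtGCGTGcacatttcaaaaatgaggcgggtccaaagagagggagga
Pkm: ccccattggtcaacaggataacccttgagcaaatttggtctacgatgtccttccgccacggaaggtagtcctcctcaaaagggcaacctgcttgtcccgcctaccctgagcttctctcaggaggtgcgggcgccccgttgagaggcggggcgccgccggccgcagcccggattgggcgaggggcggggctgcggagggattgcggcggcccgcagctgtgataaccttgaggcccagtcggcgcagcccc
The Ldha window had 5 matches, and 4 of them came from 2 copies of the palindrome CACGTG, which matches on both strands and is also the E-box that Myc proteins bind. The Pgk1 window had 2 matches of ACGTG, the Gapdh window 2 of GCGTG, the Pfkl window 1 of GCGTG and the Pkm window 0. Of 32851 RefSeq promoter windows of this length, 38.6% held ACGTG or GCGTG and 6.58% held 3 or more matches. CACGTG was present in 6.02% of the windows. Ldha and Pkm each have a second annotated start, whose window held 1 match in both genes. Among the genes not shown, Pfkp and Tpi1, both higher in B16F10, had 3 and 0 matches. Aldoa, also higher, had 0 at its first start and 1 at each other start. Pgam1 and Eno1, short of 1.5-fold, had 3 matches and, at the first start of Eno1, 1. Each other start of Eno1 had 2 matches. Whether the matches go with the line ratios was not tested.

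The comparison of the subclone with its parental line asks which steps of the route carried more transcript in B16F10. Of the 10 enzymes, 5 stood higher in B16F10 by 1.5-fold or more, and 0 were that much lower. Among the 5296 genes reaching 20 CPM in either line, 10.6% were that much higher and 6.12% that much lower in B16F10. The 10 log2 ratios B16F10 over B16F0 had a median of 0.60, against 0.12 for all genes tested. Scaling shifted these counts: of all genes, 560 were higher and 324 lower with library totals, 368 and 465 with TMM factors, and 350 and 470 with DESeq2 size factors. The median log2 ratio of all genes fell by 0.097 with TMM factors and by 0.10 with DESeq2 size factors, and 4 members were then past 1.5-fold in each case, all but Tpi1 of the 5. With 2-fold as the limit only Pfkl passed, against 1.53% of all genes.

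The phosphofructokinase genes, at the committed step, were low in both lines and stood furthest apart. Pfkl had 32.7 CPM (95% Poisson interval 31.2 to 34.2) in B16F10 and 12.8 CPM (12.1 to 13.5) in B16F0, a log2 ratio of 1.36 (1.25 to 1.46). Pfkp had 21.4 CPM (20.2 to 22.6) in B16F10 and 11.4 CPM (10.8 to 12.1) in B16F0, a log2 ratio of 0.90 (0.78 to 1.02). The intervals of the lines did not overlap for either gene. This was not particular to them, as the interval of the log2 ratio lay above 0 for 8 of the 10 members and below 0 for 1. At this depth even a small ratio, such as -0.19 for Gapdh, had an interval that excluded 0. The share of all genes with such intervals is not given here. With each cell thinned to 23173 UMIs, Pfkl was seen in 42.4% of 1416 B16F10 cells and 24.0% of 2194 B16F0 cells, and Pfkp in 35.0% and 21.8% of the B16F10 and B16F0 cells. Without thinning the shares were 55.1% of B16F10 and 33.5% of B16F0 cells for Pfkl, and 45.1% of B16F10 and 31.4% of B16F0 cells for Pfkp. Background from ambient transcripts could not be measured, as no cell type lacking these genes was present.

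In the middle of the route, aldolase and triosephosphate isomerase were higher in B16F10. Aldoa had 1064 CPM in B16F10 and 592 CPM in B16F0, a log2 ratio of 0.85 (0.83 to 0.86). Tpi1 had 758 CPM in B16F10 and 490 CPM in B16F0, a log2 ratio of 0.63 (0.61 to 0.65). Ldha, at the lactate end, had 1176 CPM in B16F10 and 709 CPM in B16F0, a log2 ratio of 0.73 (0.71 to 0.74). These 3 genes and the phosphofructokinases were the 5 past the 1.5-fold limit.

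The enzymes from Gapdh to Pkm did not pass it. Pgam1 and Eno1 were just short of it, with 649 and 852 CPM in B16F10 against 434 and 574 CPM in B16F0, log2 ratios of 0.58 and 0.57. Pgk1 had 1116 CPM in B16F10 and 884 CPM in B16F0, a log2 ratio of 0.34. Pkm, which makes pyruvate, had 740 CPM in B16F10 and 736 CPM in B16F0, a log2 ratio of 0.01 (-0.01 to 0.03), and its sign turned with the scaling. Gapdh was the one member with more transcript in B16F0 under every scaling tried, at 2898 CPM in B16F10 and 3298 CPM in B16F0, a log2 ratio of -0.19 (-0.20 to -0.18). Because Gapdh held the most UMIs of the 10, the sum of the members differed less than most single members did, at 9306 CPM in B16F10 and 7743 CPM in B16F0, 1.20-fold.

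**Figure D1:**
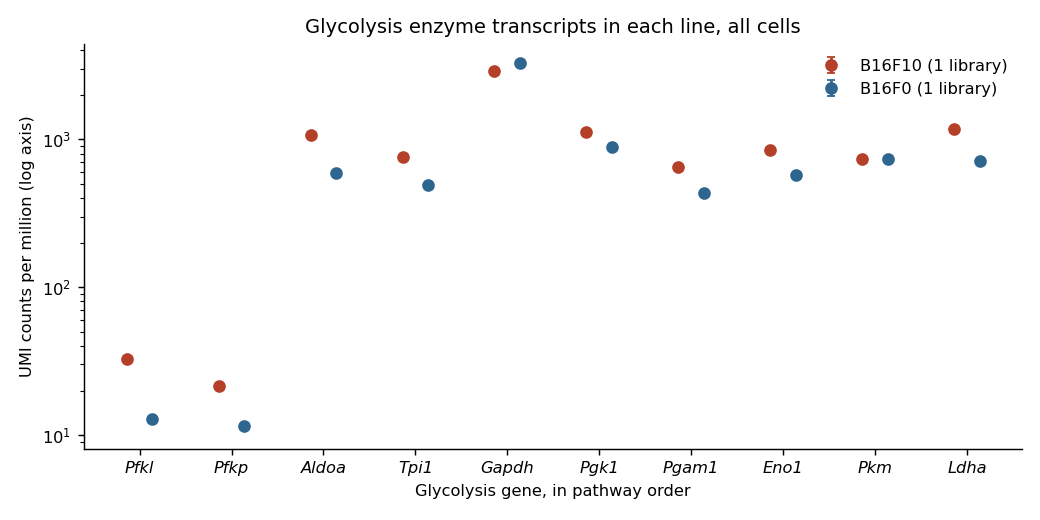
CPM (log axis) of each glycolysis gene, in pathway order, in the B16F10 library (red) and the B16F0 library (blue). Bars are 95% Poisson intervals and mostly lie within the points. Pfkl, at 32.7 CPM in B16F10 and 12.8 CPM in B16F0, is the furthest apart, and Gapdh lies lower in B16F10.

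Several of these genes have near-identical copies in the mouse genome, and the sources used here do not say how reads shared between copies were counted, so the values of Gapdh, Aldoa, Pgam1 and Eno1 are uncertain in that respect. The copies in the table were low: Eno1b had 10.4 CPM in B16F10 and 8.09 CPM in B16F0, and Aldoart1 had 9 UMIs in B16F10 and 11 UMIs in B16F0. The 2 splice forms of Pkm cannot be told apart in 3'-end counts.

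Genes on either side of the route were taken from lists of pathway genes, counting those that reached 10 CPM in either line. Over all genes at that level, 11.3% were higher by 1.5-fold or more and 6.14% lower in B16F10. Of the glucose transporters, Slc2a1 had 15.4 CPM in B16F10 and 6.76 CPM in B16F0, a log2 ratio of 1.19, while Slc2a3 had a log2 ratio of 0.01. Of 4 genes for the steps before phosphofructokinase, 2 were higher in B16F10. Hexokinase 2, which phosphorylates glucose, was one of them, with Hk2 at 66.5 CPM in B16F10 and 37.8 CPM in B16F0, a log2 ratio of 0.82. The isomerase gene Gpi1 was the other, at 225 CPM in B16F10 and 147 CPM in B16F0, a log2 ratio of 0.62, while Hk1 had 0.33 and the ADP-dependent glucokinase gene Adpgk 0.13. The transporters that export lactate came next. Slc16a3, the monocarboxylate transporter of glycolytic cells, had 12.4 CPM in B16F10 and 1.67 CPM in B16F0, a log2 ratio of 2.89. The related transporter Slc16a1 had 25 CPM in B16F10 and 15.2 CPM in B16F0, a log2 ratio of 0.72, and their chaperone Bsg had 0.17.

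Other isozymes and branches of the route were mostly between the limits or lower in B16F10. None of 3 further isozyme genes (Bpgm at -0.12, Eno3 at -0.15 and Ldhb at 0.27 on the log2 scale) passed 1.5-fold, nor did Tigar, a bisphosphatase that opposes phosphofructokinase, at -0.13. Of 8 genes that admit pyruvate to mitochondria or convert it there, 0 passed, with a median log2 ratio of 0.27; the largest was Dld at 0.57. The other pyruvate dehydrogenase genes were at 0.55 (Pdhx), 0.46 (Dlat), 0.40 (Pdhb) and 0.14 (Pdha1). The kinase gene Pdk3, which switches that complex off, was at -0.18, and the carrier genes Mpc1 and Mpc2 were at -0.30 and 0.07. Another such kinase gene, Pdk1, fell short of 10 CPM and was named after its value was seen. It had 9.30 CPM in B16F10 and 3.67 CPM in B16F0, a log2 ratio of 1.34. Pcx, also listed and short of 10 CPM, stood the other way at -0.88. In the pentose phosphate pathway, which draws off glucose 6-phosphate, 1 of 7 genes was higher and 2 were lower in B16F10. G6pdx, its first enzyme, had 33.0 CPM in B16F10 and 54.4 CPM in B16F0, a log2 ratio of -0.72, Pgd had -0.67, and the epimerase gene Rpe had 0.73. In serine synthesis, which draws off 3-phosphoglycerate, 2 of 5 genes were lower in B16F10 and 0 were higher. Phgdh, its first enzyme, had 246 CPM in B16F10 and 471 CPM in B16F0, a log2 ratio of -0.94, while Psph had -0.61 and Shmt2 -0.33. Of 15 genes of the tricarboxylic acid cycle, 3 were higher in B16F10 (Dlst, Idh3a and Sdhb, at 0.91, 0.85 and 0.65) and 0 were lower, and the median was 0.13.

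Regulators were read from a list of 13 genes, of which 4 were higher and 0 lower in B16F10. Hif1a, the oxygen-regulated factor that activates glycolytic genes, had 59.0 CPM in B16F10 and 38.8 CPM in B16F0, a log2 ratio of 0.61. Ppargc1a, a coactivator of mitochondrial genes, was the furthest apart, at 124 CPM in B16F10 and 4.78 CPM in B16F0. The prolyl hydroxylase gene Egln1, which marks that factor for degradation, had a log2 ratio of 0.69, and Esrra, a nuclear receptor of energy metabolism, had 0.998. Myc had 15.1 CPM in B16F10 and 13.9 CPM in B16F0, a log2 ratio of 0.11. Egln1 and Myc were named after their values were seen. Glycogen, hexosamine, shuttle and gluconeogenesis lists gave 2 of 7, 0 of 3, 2 of 8 and 0 of 2 genes higher in B16F10, and 0 lower in each. Their members furthest from 0 among those at 20 CPM included Pgm2 (0.56) for glycogen, Gnpnat1 (-0.20) for hexosamines, Got1 (0.91) and Gpd2 (0.33) for the shuttles and Pck2 (-0.58) for gluconeogenesis.

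**Figure D2:**
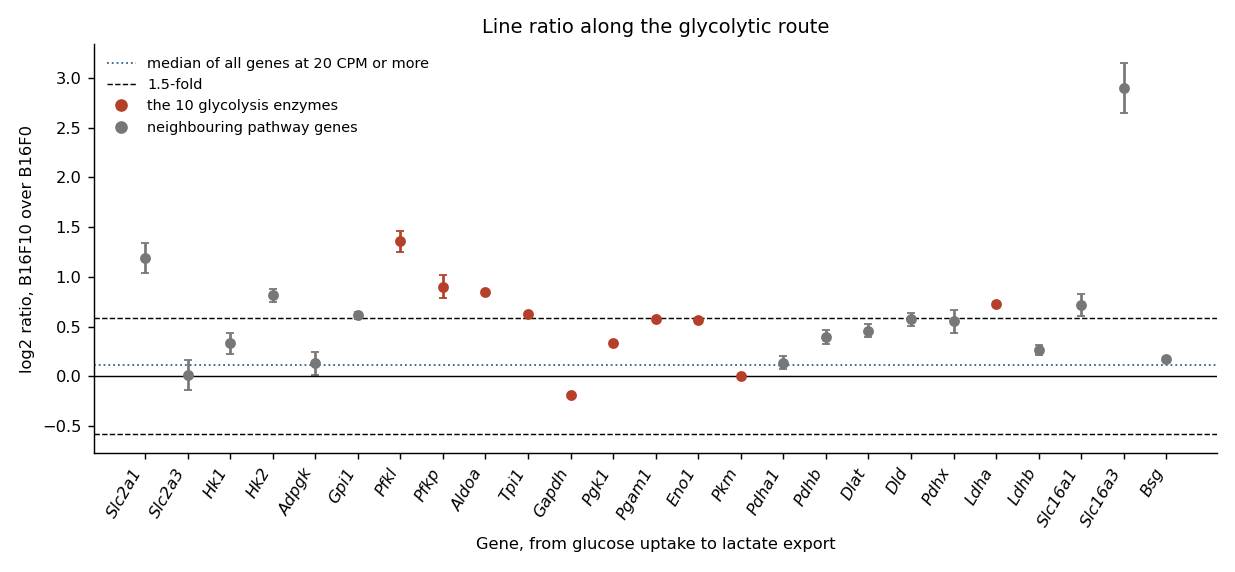
Log2 ratio B16F10 over B16F0 of the glycolysis enzymes (red) and of genes before and after them (grey), from glucose uptake to lactate export, with 95% counting intervals. Dashed lines mark 1.5-fold and the dotted line the median of all genes, 0.12. Slc16a3 stands highest at 2.89, and Gapdh is the only enzyme of the 10 below 0 with library totals, Pkm joining it with TMM or DESeq2 factors.

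The authors deposited a cluster for each cell (C1 to C5), a cycling or non-cycling class and a Kdm5b class. Clusters C3 and C4 held cells of both lines, whereas C5 held 1045 B16F10 and 13 B16F0 cells, C1 held 7 B16F10 and 816 B16F0 cells, and C2 held 4 B16F10 and 644 B16F0 cells. Deposited classes under 50 cells of a line were not used, though a filter on cells could leave fewer. Clusters were made from the same cells, and the sources used here do not name the genes that went into them, so values by cluster are descriptions.

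Within C3, a cluster with 8.50% cycling cells in B16F10 and 11.1% in B16F0, 3 of 10 enzymes were higher in B16F10 and 0 lower, against 8.39% of all genes higher and 9.83% lower. Pfkl had 38.5 CPM in B16F10 and 13.4 CPM in B16F0, Pfkp 27.0 CPM in B16F10 and 13.7 CPM in B16F0, and Pgk1 1318 CPM in B16F10 and 875 CPM in B16F0. Ldha was just short of the limit at 941 CPM in B16F10 and 629 CPM in B16F0, a log2 ratio of 0.58. By the median cell of C3, Ldha had 485 CPM in B16F10 and 510 CPM in B16F0, and Pgk1 810 CPM in B16F10 and 720 CPM in B16F0. The 95% point of Ldha in C3 was 3081 CPM in B16F10 and 1393 CPM in B16F0.

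In C4, where 100% of B16F10 and 99.6% of B16F0 cells were called cycling, the sum of the enzymes stood the other way. The summed members reached 4748 CPM in 212 B16F10 cells and 7006 CPM in 469 B16F0 cells, a log2 ratio of -0.56 (-0.58 to -0.54). Gapdh was lower in B16F10, at 1394 CPM in B16F10 and 3075 CPM in B16F0, a log2 ratio of -1.14 (-1.17 to -1.11). It was the 1 of 8 members with at least 20 CPM that passed 1.5-fold in either direction, where 15.1% of all genes were lower and 17.4% higher. Aldoa, Ldha and Pkm were at 457, 446 and 461 CPM in B16F10 against 622, 610 and 624 CPM in B16F0, log2 ratios of -0.44, -0.45 and -0.44. Pgk1 had 715 CPM in B16F10 and 709 CPM in B16F0. Pfkl had 12.7 CPM in B16F10 and 11.4 CPM in B16F0, a log2 ratio of 0.15 (-0.24 to 0.53), where C3 had 1.52 (1.30 to 1.74).

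In pooled counts the whole set was low in C4 of B16F10 when set against C3 of the same line. All 10 enzymes were at least 1.5-fold lower in C4 than in C3 of B16F10, against 5.93% of all genes lower and 16.8% higher, and the sums were 4748 CPM in C4 and 8957 CPM in C3. Pfkl had 12.7 CPM in C4 and 38.5 CPM in C3, a log2 ratio C4 over C3 of -1.61 (-1.97 to -1.26). Aldoa had 457 CPM in C4 and 1023 CPM in C3 (log2 ratio -1.16), Ldha 446 CPM in C4 and 941 CPM in C3 (-1.08), and Gapdh 1394 CPM in C4 and 2854 CPM in C3 (-1.03). Pkm, at 461 CPM in C4 and 714 CPM in C3, had the ratio nearest to 0, -0.63. With the mean of per-cell CPM 9 of the 10 passed. By the median cell 2 of 8 enzymes with a median above 0 passed, against 4.30% of all genes lower and 12.7% higher. These were Aldoa, with 326 CPM in C4 and 682 CPM in C3, and Gapdh, with 1136 CPM in C4 and 2029 CPM in C3. The other 6 medians were lower in C4 as well, with log2 ratios from -0.46 for Ldha to -0.36 for Tpi1. In B16F0, 0 of 8 enzymes with at least 20 CPM passed the limit between C4 and C3, against 1.49% of all genes lower and 10.4% higher, and the sums were 7006 CPM in C4 and 7885 CPM in C3.

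The genes around the route were partly low in C4 of B16F10 too. Of 9 transporter, hexokinase, isomerase and lactate export genes, 7 had at least 20 CPM in C4 or C3, 5 were lower and 1 higher in C4. Of all genes at that level, 5.93% were lower and 16.8% higher in C4. Slc2a1 had 8.12 CPM in C4 and 24.0 CPM in C3, Hk2 45 CPM in C4 and 108 CPM in C3, and Gpi1 133 CPM in C4 and 267 CPM in C3. Hk1 and Bsg were lower as well, at log2 ratios of -1.37 and -0.79, and Adpgk was higher at 0.61. In B16F0, 1 of 3 such genes was lower in C4, Hk2 with 27.2 CPM in C4 and 46.6 CPM in C3. Of all genes, 1.49% were lower and 10.4% higher in C4 of B16F0.

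The mitochondrial share and the depth differed more between the lines than between C4 and C3 of B16F10. B16F10 cells of C4 had 8.43% mitochondrial UMIs and a median of 29693 UMIs, and B16F10 cells of C3 had 7.77% and 30159.5 UMIs. B16F0 cells of C4 had 4.94% and 38645 UMIs, and B16F0 cells of C3 had 5.27% and 34614.5 UMIs. Among cells with at most 8% mitochondrial UMIs, a filter chosen after seeing these values, 38.2% of the B16F10 cells of C4 remained and their mitochondrial share was 5.48%. In these cells 7 members were still at least 1.5-fold lower in C4 than in C3 of B16F10, against 6.20% of all genes lower and 20.4% higher in the same cells, while Pgam1 (-0.49), Pkm (-0.46) and Pfkp (-0.38) lay within the limit, and the sum was 5892 CPM in C4 and 10012 CPM in C3. The log2 ratio of the sums between the lines in C4 was -0.26 in these cells, so it lay closer to 0 than over all C4 cells.

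The clusters found almost wholly in 1 line were compared with C3 of that line. In the pooled counts of B16F10, 0 of 10 enzymes passed 1.5-fold between C5 and C3, against 16.6% of all genes higher and 5.37% lower. Ldha came nearest, with 1356 CPM in C5 and 941 CPM in C3, a log2 ratio of 0.53. By the median cell, 5 of 8 enzymes with a median above 0 were at least 1.5-fold higher in C5, against 16.6% of all genes higher and 3.51% lower by that measure. The median of Ldha was 1186 CPM in C5 and 485 CPM in C3, that of Eno1 825 CPM in C5 and 489 CPM in C3, and that of the sum 9232 CPM in C5 and 6066 CPM in C3. Pgam1, Tpi1 and Aldoa also passed, at log2 ratios of the medians of 0.62, 0.61 and 0.59. In the pooled counts of B16F0, 0 of 8 passed between C1 and C3 (2.56% higher and 5.42% lower among all genes), and between C2 and C3 the single call was Aldoa, at 416 CPM in C2 and 772 CPM in C3, a log2 ratio of -0.89, where 7.60% of all genes were lower and 13.3% higher.

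**Figure D3:**
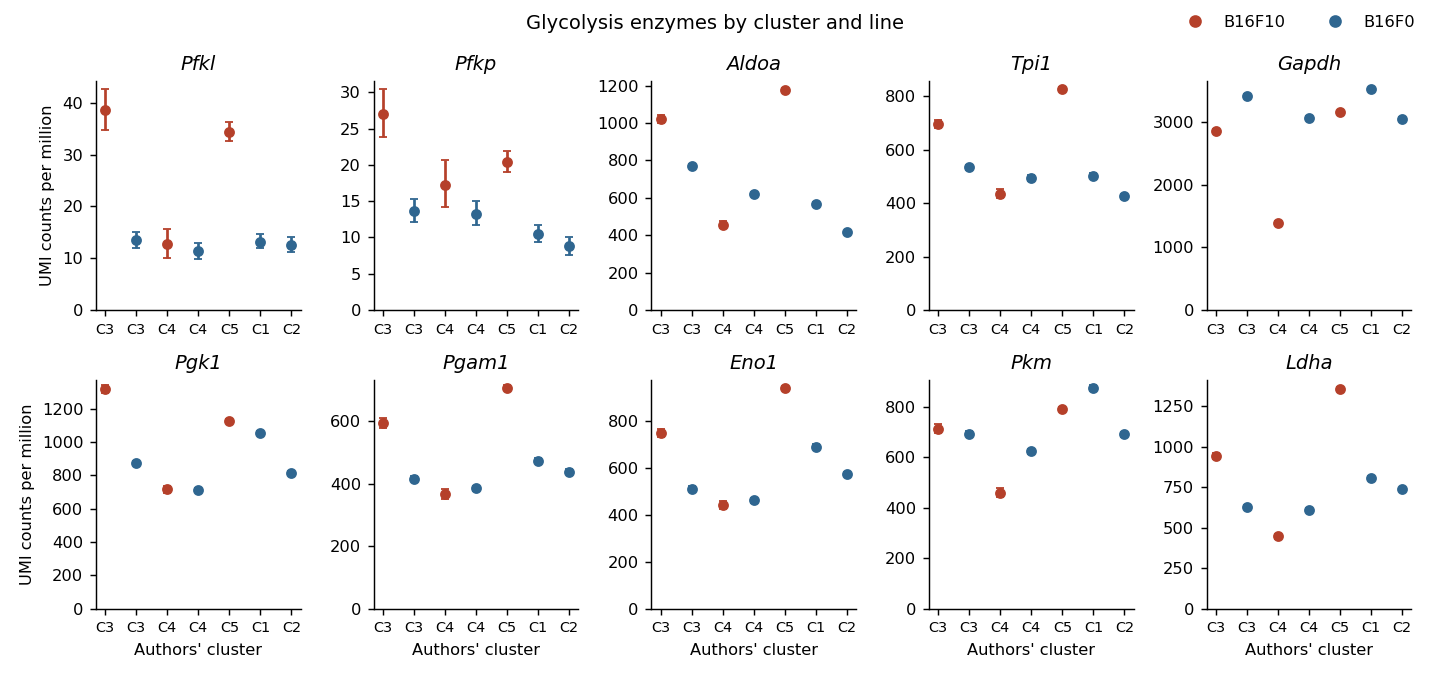
CPM of each glycolysis enzyme by cluster, with B16F10 in red and B16F0 in blue and 95% Poisson intervals as bars. Each axis starts at 0. In every panel pooled C4 of B16F10 lies below the other B16F10 clusters, as for Pfkl with 12.7 CPM in C4 and 38.5 CPM in C3.

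Cells the authors called cycling were compared with non-cycling cells because B16F10 had more of them, 78.1% of B16F10 and 54.6% of B16F0 cells. In pooled counts no enzyme passed 1.5-fold between cycling and non-cycling cells in either line, 0 of 10 in B16F10 and 0 of 8 in B16F0. Among all genes, 13.0% were higher and 3.43% lower in cycling B16F10 cells, and 9.35% higher and 1.03% lower in cycling B16F0 cells. Ldha had 1219 CPM in cycling and 999 CPM in non-cycling B16F10 cells, a log2 ratio of 0.29, and 713 CPM in cycling and 705 CPM in non-cycling B16F0 cells. By the median cell Ldha did pass in B16F10, at 1041 CPM in cycling and 601 CPM in non-cycling cells, 1 of 8 enzymes with a median above 0, where 10.9% of all genes were higher and 2.28% lower. Pooled Pgk1 stood the other way in both lines, at 1065 CPM in cycling and 1327 CPM in non-cycling B16F10 cells, and 805 CPM in cycling and 986 CPM in non-cycling B16F0 cells. Its median turned round in B16F10, with 928 CPM in cycling and 849 CPM in non-cycling cells, while the 95% point was 1999 CPM in cycling and 4389 CPM in non-cycling cells. In B16F0 the median of Pgk1 was 717 CPM in cycling and 821 CPM in non-cycling cells.

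Within both classes the pooled levels of the phosphofructokinases and Aldoa were higher in B16F10. Among cycling cells 7 of 10 enzymes were higher in B16F10 (8.07% of all genes higher, 5.99% lower), Pgam1 and Eno1 joining the 5 named above at log2 ratios of 0.62 and 0.66. Among non-cycling cells 3 of 10 were higher (10.2% of all genes higher, 7.32% lower), Pfkl, Pfkp and Aldoa. In non-cycling cells Aldoa had 1062 CPM in B16F10 and 671 CPM in B16F0, Tpi1 718 CPM in B16F10 and 518 CPM in B16F0, and Ldha 999 CPM in B16F10 and 705 CPM in B16F0. The median of Ldha in non-cycling cells was 601 CPM in B16F10 and 594 CPM in B16F0. The pooled ratio of the summed members was 1.27-fold in cycling and 1.12-fold in non-cycling cells, and by the median cell the order turned in non-cycling cells, with sums of 6765 CPM in B16F10 and 7291 CPM in B16F0.

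Kdm5b encodes a histone H3 lysine 4 demethylase that has been used to mark slow-cycling melanoma cells. The authors placed 121 B16F10 and 111 B16F0 cells in the Kdm5b high class, and only 36.4% of these B16F10 cells and 18.0% of these B16F0 cells were called cycling. Non-cycling cells were therefore also compared with each other, 77 Kdm5b high and 267 Kdm5b low cells of B16F10, and 91 Kdm5b high and 1080 Kdm5b low cells of B16F0.

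In non-cycling B16F10 cells both phosphofructokinase genes were higher in the Kdm5b high class, 2 of 10 members against 1.10% of all genes, with 0 members and 0.492% of all genes lower. Pfkl had 54.2 CPM in Kdm5b high and 32.5 CPM in Kdm5b low cells, a log2 ratio of 0.74 (0.43 to 1.04). Pfkp had 34.1 CPM in Kdm5b high and 22.2 CPM in Kdm5b low cells, a log2 ratio of 0.62 (0.23 to 0.996). Among cells with at most 8% mitochondrial UMIs Pfkp no longer passed, at 0.39. Only 43 Kdm5b high and 153 Kdm5b low cells remained there, the former under the minimum of 50 cells used elsewhere. All 10 ratios lay above 0 with their intervals, which reflect counting error alone, and the share of all genes with such intervals is not given here. The median of the 10 was 0.32, against 0.03 for all genes at 20 CPM or more. The other ratios ran up to 0.42 for Pgk1, which had 1652 CPM in Kdm5b high and 1236 CPM in Kdm5b low cells. By the median cell Ldha had 940 CPM in Kdm5b high and 546 CPM in Kdm5b low cells, and Aldoa 1022 CPM in Kdm5b high and 680 CPM in Kdm5b low cells. In B16F0 0 of 8 members passed (0.620% of all genes higher, 0.372% lower), and Aldoa, with 792 CPM in Kdm5b high and 662 CPM in Kdm5b low cells, had a log2 ratio of 0.26. Without the restriction to non-cycling cells, 1 of 10 passed in B16F10 (1.83% of all genes higher, 4.26% lower), Pfkl with 52.6 CPM in Kdm5b high and 31.2 CPM in Kdm5b low cells, and 0 of 8 in B16F0 (0.995% of all genes higher, 3.66% lower).

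Of the 9 surrounding genes, 7 had at least 20 CPM in non-cycling B16F10 cells and 3 were higher in the Kdm5b high class. Of all genes at that level, 1.10% were higher and 0.492% lower. Slc2a1 had 43.6 CPM in Kdm5b high and 18.1 CPM in Kdm5b low cells, Hk2 151 CPM in Kdm5b high and 86.3 CPM in Kdm5b low cells, and Slc16a3 28.8 CPM in Kdm5b high and 14.2 CPM in Kdm5b low cells. In non-cycling B16F0 cells 3 of the 9 had that level and 0 passed, against 0.620% of all genes higher and 0.372% lower. Hk2 was at 48.8 CPM in Kdm5b high and 44.8 CPM in Kdm5b low cells of B16F0. Whether the lines differ in this contrast was not tested.

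Between the lines, 8 of 10 enzymes were higher in B16F10 within the Kdm5b high class, against 13.2% of all genes higher and 7.73% lower. In the Kdm5b low class 5 of 10 were higher, against 10.6% of all genes higher and 6.19% lower. The Kdm5b high count added Pgk1 (1505 CPM in B16F10 and 945 CPM in B16F0), Pgam1 and Eno1 to the 5 of the whole lines. Within non-cycling cells the counts were 7 of 10 in the Kdm5b high class (11.9% of all genes higher, 10.3% lower) and 3 of 10 in the Kdm5b low class (10.4% higher, 7.53% lower). The summed members were 10758 CPM in B16F10 and 8685 CPM in B16F0 in non-cycling Kdm5b high cells, and 8803 CPM in B16F10 and 8219 CPM in B16F0 in non-cycling Kdm5b low cells.

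Single cells overlapped widely between the lines. The summed CPM of the 10 enzymes per cell had a 5% point of 3112, a median of 8308 and a 95% point of 17388 in B16F10, and of 3766, 6973 and 12794 in B16F0. After thinning, 62.0% of B16F10 cells lay above the B16F0 median. The spread was wider in B16F10: the variance over the mean of the summed thinned UMIs was 60.5 in B16F10 and 32.7 in B16F0.

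Cells with a high total were more frequent in B16F10. Cells above 12794 CPM, the 95% point of B16F0, made up 14.7% of B16F10 cells and 5.03% of B16F0 cells, the B16F0 share being fixed by the choice of that point. In C3 they made up 18.6% of B16F10 cells and 6.88% of B16F0 cells, and in C4 2.36% of B16F10 cells and 1.71% of B16F0 cells. C5 of B16F10 had 16.2%, and it held 169 of the 231 such B16F10 cells, where C3 held 57. By cycling class they made up 13.8% of cycling and 17.7% of non-cycling B16F10 cells. The median cell of C3 was lower in B16F10, at 6066 CPM in B16F10 and 7006 CPM in B16F0, although the pooled counts of C3 were higher in B16F10. The 10% of C3 cells with the highest summed CPM of the members held 29.0% of the members' UMIs in B16F10 and 18.6% in B16F0. Non-cycling cells had the same order, with medians of 6765 CPM in B16F10 and 7291 CPM in B16F0. In cycling cells, by contrast, the median was 8643 CPM in B16F10 and 6679 CPM in B16F0, and C5 alone had 9232 CPM.

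**Figure D4:**
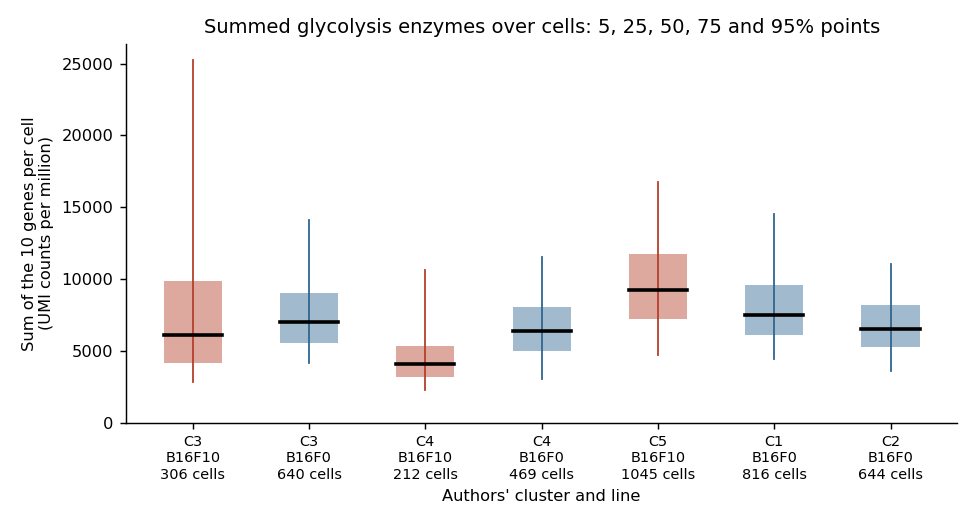
Summed CPM of the 10 glycolysis enzymes per cell by cluster and line. The boxes run between the 25 and 75% points, the black line is the median and the thin line joins the 5 and 95% points. C3 of B16F10 has a median of 6066 CPM with the longest upper line, and C4 of B16F10 has the lowest median, 4061 CPM.

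The enzymes varied together from cell to cell in both lines. Across thinned cells, Spearman's rho over the 45 pairs had a median of 0.54 in 1416 B16F10 cells and 0.36 in 2194 B16F0 cells, and all 45 values were above 0 in both. These are descriptions without a p, since the cells of a line share 1 library. The 28 pairs among the 8 abundant genes ran between 0.46 and 0.77 in B16F10, with a median of 0.60, and between 0.22 and 0.60 in B16F0, with a median of 0.42. Pairs with Pfkl or Pfkp, whose counts were sparse, had medians of 0.22 in B16F10 and 0.11 in B16F0. Other genes of the same abundance had a median rho among themselves of 0.03 in B16F10 and 0.02 in B16F0, and with the members of 0.09 in B16F10 and 0.05 in B16F0.

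Ldha was the gene most tied to the rest, with a median rho with the other 7 abundant members of 0.67 in B16F10 and 0.52 in B16F0. Its pair with Aldoa had the highest value of B16F10, 0.77 in B16F10 and 0.47 in B16F0. The highest of B16F0 was Eno1 with Pkm, at 0.67 in B16F10 and 0.60 in B16F0. Aldoa with Pgam1 was the loosest of the 28 pairs in B16F0, at 0.52 in B16F10 and 0.22 in B16F0. Pfkl followed the abundant members at a median of 0.35 in B16F10 and 0.14 in B16F0, and Pfkp at 0.17 in B16F10 and 0.09 in B16F0.

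**Figure D5:**
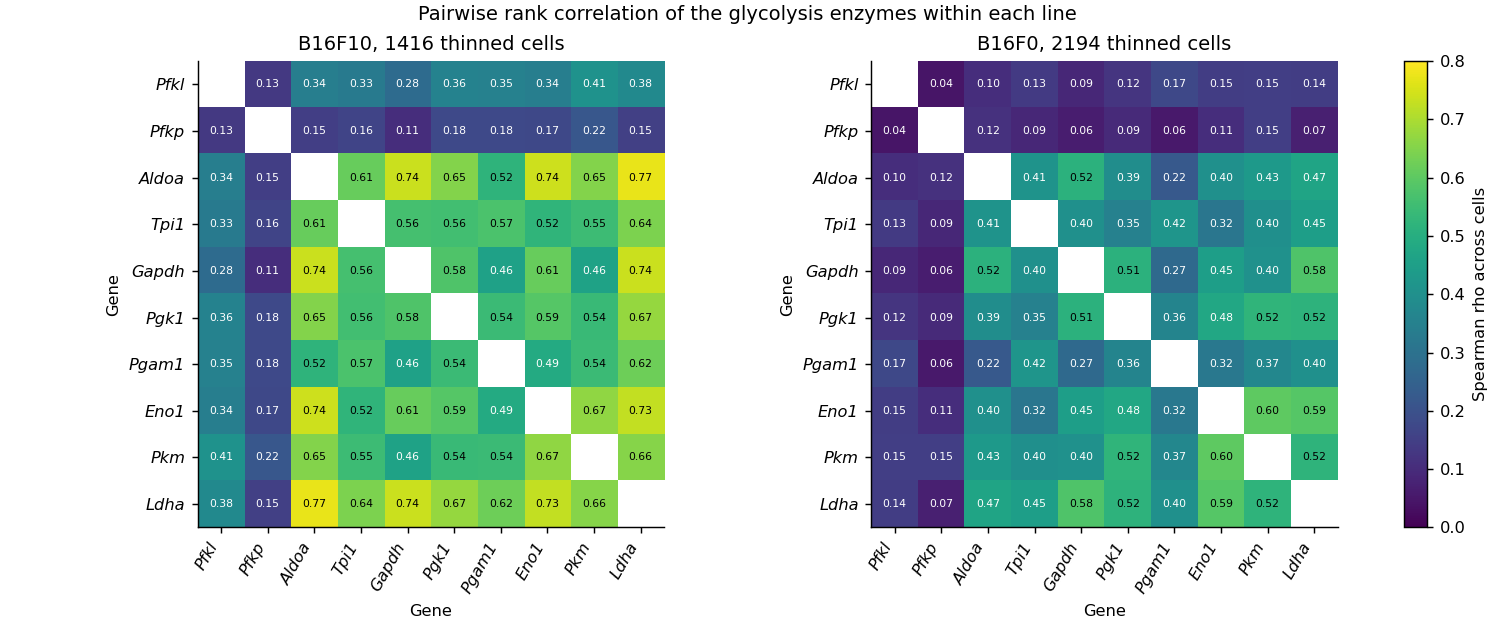
Spearman's rho across thinned cells for each pair of glycolysis enzymes, in B16F10 on the left and B16F0 on the right, on 1 colour scale from 0 to 0.8. The block of abundant genes is brighter in B16F10, with Aldoa and Ldha at 0.77 in B16F10 and 0.47 in B16F0, and the Pfkl and Pfkp rows are dark in both.

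The closeness of the 28 pairs varied with the class. Their median rho was 0.63 in B16F10 and 0.45 in B16F0 within C3, and 0.37 in B16F10 and 0.41 in B16F0 within C4, the class with the low levels. It was 0.49 in C5 of B16F10, 0.45 in C1 and 0.44 in C2 of B16F0. Within the Kdm5b high class it was 0.73 in B16F10 and 0.53 in B16F0, over 105 and 83 thinned cells, and within the Kdm5b low class 0.59 in B16F10 and 0.41 in B16F0. Mean counts differ between these classes, and their part in the correlations was not tested.

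Among 2658 other genes with at least 1 thinned UMI per cell in both lines, those closest to the summed enzymes were ranked by the lower of their rho values in the lines. Ppia, a peptidyl-prolyl isomerase, came first with 0.66 in B16F10 and 0.58 in B16F0, followed by the mitochondrial ADP/ATP carrier gene Slc25a5 with 0.70 in B16F10 and 0.51 in B16F0. The chaperone genes Hsp90ab1 and Hsp90aa1 had 0.63 and 0.58 in B16F10 and 0.50 and 0.45 in B16F0. Atp5b, a subunit of ATP synthase, had 0.49 in both lines, the chaperonin gene Cct7 had 0.46 in B16F10 and 0.47 in B16F0, Slc25a4 had 0.63 in B16F10 and 0.45 in B16F0, and the creatine kinase gene Ckb had 0.49 in B16F10 and 0.44 in B16F0. Of these 8 genes, Ppia (3732 CPM in B16F10 and 5683 CPM in B16F0), Atp5b and Ckb were at least 1.5-fold lower in B16F10, and 0 were that much higher.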

How the data were processed

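The authors deposited UMI counts per gene and cell, whole numbers, per the file headers, from libraries made with the 10x Chromium 3' kit of chemistry v2, per the labels' protocols. The submitters' processing notes list Cell Ranger 3.0.0 and Seurat 3.0 without saying what each did. The authors also deposited classes and an S and a G2/M score per cell, per the file headers. The sources used here do not say how they were derived. Per-sample columns not used numbered 0.

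Counts were summed over the cells of a line or class and scaled to CPM, with exact 95% Poisson intervals. Log2 ratios carry conditional binomial intervals. With 1 library per line no test was made, and a gene was called at a 1.5-fold difference if either group reached 20 CPM. The libraries hold 56748682 UMIs in B16F10 and 94268486 UMIs in B16F0, and a count of 0 allows up to 3 counts, which are 0.0529 CPM in B16F10 and 0.0318 CPM in B16F0. For shares of cells, variances and correlations each cell was thinned to 23173 UMIs, which left out 158 B16F10 and 388 B16F0 cells. No doublet caller was run, and an alternative drops the deepest 5% of cells. The ratio step was tested on simulated data.

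The members and gene lists were chosen with earlier results of these data known. Named genes are the members, listed transport, hexokinase, isozyme, lactate and pyruvate genes with at least 10 CPM, the 3 largest ratios of each other list at 20 CPM or more, and the 8 genes closest to the summed members; some of these are not reported here. Markers of T and NK cells and of erythroid cells were not analysed here. Alternatives were TMM factors (edgeR 4.0.16), DESeq2 1.42.0 size factors, other totals, other sets of cells, other minimums and other correlation measures. Tables were handled with pandas 2.3.3 and numpy 2.4.6 in Python 3.11.15, intervals came from scipy 1.17.1, scaling factors from R 4.3.3 and plots from matplotlib 3.10.9.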

Additional observations from a re-analysis of the deposited data

Results flagged for a closer look

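In pooled counts the line ratio pointed opposite ways in clusters C4 and C3 for 6 enzymes and for the sum. The counting intervals lay below 0 in C4 and above 0 in C3. This difference was not tested because each line is 1 library, and the share of all genes with such a pattern is not given here. Some of these ratios were close to 0, at -0.07 in C4 for Pgam1 and Eno1 and 0.04 in C3 for Pkm. The log2 ratio B16F10 over B16F0 in C4 minus that in C3 was -1.03 for Ldha, -0.85 for Aldoa, -0.62 for Eno1, -0.58 for Pgam1, -0.56 for Tpi1, -0.48 for Pkm and -0.75 for the sum of the 10. By the median cell the ratio of the sums was -0.65 in C4 and -0.21 in C3, so both were below 0. The median of Ldha in C3 was 485 CPM in B16F10 and 510 CPM in B16F0.

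Cycling over non-cycling in pooled counts also had opposite signs in the lines for 4 enzymes and the sum, again untested. Only ratios whose counting intervals excluded equal levels in both lines were taken. Aldoa, at 0.003 (-0.03 to 0.03) in B16F10 and -0.34 in B16F0, was therefore left out. The share of all genes meeting this rule is not given here. The log2 ratio in B16F10 minus that in B16F0 was 0.27 for Eno1, 0.24 for Tpi1, 0.21 for Pkm, 0.15 for Pgam1 and 0.18 for the sum, with none past 1.5-fold within a line.

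For Kdm5b high over Kdm5b low in non-cycling cells, Eno1 and Pkm had ratios above 0 in B16F10 and below 0 in B16F0. The ratio in B16F10 minus that in B16F0 was 0.36 for Eno1 and 0.42 for Pkm, and this difference was not tested.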

How the results depend on the processing

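No paired analysis was possible because each line is 1 library, and leaving out a replicate was not possible for the same reason. The log2 ratio of the summed members, 0.27 over all cells, was 0.17 with TMM factors, 0.16 with DESeq2 size factors, 0.25 with mitochondrial and ribosomal protein genes left out of the total, 0.23 for the mean of per-cell CPM, 0.26 without the deepest 5% of cells, 0.39 in cells with at most 8% mitochondrial UMIs, 0.34 in cycling and 0.16 in non-cycling cells. The count of members higher in B16F10, 5, was 7 in cycling cells, 7 in cells with at most 8% mitochondrial UMIs, 3 in non-cycling cells and 1 at 2-fold, and the share of all genes higher was 16.6% with no minimum and 6.97% at 100 CPM. Pkm turned to -0.089 with TMM factors, -0.094 with DESeq2 size factors, -0.0095 with the reduced total and -0.12 in non-cycling cells, and the other 9 enzymes kept their sign. The median rho was 0.60 in non-cycling B16F10 cells and 0.42 in B16F0 without thinning.

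The following alternatives were chosen after seeing the data. With medians over cells, the ratio of the sums was 0.25 over all cells, 0.37 in cycling, -0.65 in C4 and 0.19 in Kdm5b high cells. By that measure it reversed to -0.11 in non-cycling and -0.21 in C3 cells. With the mean of per-cell CPM it was 0.32 in cycling, 0.13 in non-cycling, 0.15 in C3, -0.46 in C4 and 0.22 in Kdm5b low cells. Without the deepest 5% of cells it was 0.15 in non-cycling, 0.16 in C3, -0.51 in C4 and 0.25 in Kdm5b low cells. With at most 8% mitochondrial UMIs it was 0.47 in cycling, 0.31 in non-cycling, 0.34 in C3, -0.26 in C4, 0.53 in Kdm5b high and 0.38 in Kdm5b low cells. With that filter 1 member in place of 2 was higher in Kdm5b high non-cycling B16F10 cells, of which only 43 remained. Counting members by their medians in B16F10, 2 in place of 10 were lower in C4 than in C3, 5 in place of 0 were higher in C5 than in C3, 1 in place of 0 was higher in cycling cells, and 0 in place of 1 was higher in Kdm5b high cells. The cause was not tested for these changes. Depth limits Pfkl and Pfkp, which were under 20 CPM in the B16F0 classes.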
